A study of Mus musculus with 7 samples.

Results

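The major histocompatibility complex (MHC) class I presentation machinery was examined in MIN6 cells, a mouse insulinoma line that makes and secretes insulin, cultured with MPE, a Maidong polysaccharide extract, or with phosphate-buffered saline as the vehicle. It was represented by 10 genes, chosen by name: B2m, H2-K1, H2-D1, H2-T23, Tap1, Tap2, Tapbp, Psmb8, Psmb9 and Erap1. Probes were assigned to them through the transcript accession in the scanner files, which gave 14 probes for the 10 genes, among 45616 distinct gene or transcript names on the array. Tested were the 22098 names with a probe well above background on at least 3 arrays, and all 10 genes were among them.

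The MPE group held 4 arrays and the vehicle group 3 arrays, and each array carried the Cy3-labelled RNA of a single sample, harvested after 3 days of culture. Both groups share the same line and medium and differ by the extract alone, as far as the labels say. The culture notes list extract concentrations up to 50 μg/mL, and which of them was used for the arrays is not given. MIN6 is a single immortalised line, derived from a mouse tumour driven by a viral oncogene under the insulin promoter, so it models the beta cell without the immune and vascular cells of an islet. The labels number the replicates without saying whether they were separate cultures, so p-values here rest on a spread that may be technical. Between 27901 and 28465 of 56605 probes were well above background on MPE arrays, and between 29496 and 30111 on vehicle arrays. The detection limit, read as the lowest signal of a probe passing the scanner's background test, was 20.6 to 24.4 on MPE arrays and 12.6 to 15.5 on vehicle arrays. The 2 groups occupied different rows of a single slide, so the effects of slide row and of the extract cannot be told apart, while slide columns 1, 2 and 4 each held an array of both groups.

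Class I presentation shows fragments of a cell's own proteins to cytotoxic T cells. The immunoproteasome, which carries the catalytic subunits Psmb8 and Psmb9, cuts proteins into peptides. The transporter made of Tap1 and Tap2 carries these into the endoplasmic reticulum, where the aminopeptidase Erap1 trims them, and tapasin (Tapbp) holds the transporter next to empty class I molecules while they are loaded. A loaded molecule consists of a heavy chain, such as H2-K1, H2-D1 or the non-classical H2-T23, and the invariant light chain B2m. Interferons raise most of these genes in many cell types, and heightened class I expression on islet cells is a known feature of autoimmune diabetes.

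Promoters of 9 of the 10 genes, all but Tap2, were found in the RefSeq table for GRCm38.p6. The 250 bases before the gene start are shown for the heavy chains H2-K1 and H2-D1 and for their light chain B2m. For Psmb9 and Tap1 the stretch between the starts is shown. These stretches, like those of some members not shown, carry matches to sequence elements known from class I genes. Each reads 5′ to 3′, and capitals mark matches, on either strand, to the interferon-response core (GAAA, any 2 bases, GAAA), its shorter form (GAA, any 2 bases, GAAA), the NF-kB pattern (GGG, any 2 bases, TT, any base, CC), the short CRE core TGACG and the inverted CCAAT box ATTGG. No 2 of these matches overlapped in any member.
H2-K1, chr17:34000348-34000597, minus strand: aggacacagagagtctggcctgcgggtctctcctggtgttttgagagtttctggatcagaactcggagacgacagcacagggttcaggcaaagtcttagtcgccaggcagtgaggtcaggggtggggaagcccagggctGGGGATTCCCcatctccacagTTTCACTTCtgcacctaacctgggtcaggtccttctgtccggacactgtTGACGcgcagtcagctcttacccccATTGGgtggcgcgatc
H2-D1, chr17:35262844-35263093, plus strand: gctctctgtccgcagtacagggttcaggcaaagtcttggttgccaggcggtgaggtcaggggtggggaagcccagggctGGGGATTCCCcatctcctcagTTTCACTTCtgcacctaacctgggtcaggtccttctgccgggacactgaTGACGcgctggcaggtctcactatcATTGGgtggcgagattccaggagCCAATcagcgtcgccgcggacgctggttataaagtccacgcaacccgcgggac
B2m, chr2:122147437-122147686, plus strand: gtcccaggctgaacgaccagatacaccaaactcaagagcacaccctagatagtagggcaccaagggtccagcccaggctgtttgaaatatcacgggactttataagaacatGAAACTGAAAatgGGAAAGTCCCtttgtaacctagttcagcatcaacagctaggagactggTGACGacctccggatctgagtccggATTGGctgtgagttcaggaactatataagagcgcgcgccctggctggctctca
Psmb9 and Tap1, chr17:34187331-34187555, plus strand: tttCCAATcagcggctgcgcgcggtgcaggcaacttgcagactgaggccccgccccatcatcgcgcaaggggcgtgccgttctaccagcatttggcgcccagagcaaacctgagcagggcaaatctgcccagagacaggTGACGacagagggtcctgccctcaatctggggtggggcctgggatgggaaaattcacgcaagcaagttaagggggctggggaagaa

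The H2-K1 and H2-D1 promoters carried the same 4 kinds of element in the same order, an NF-kB match, the shorter interferon-response core, the CRE core and the CCAAT box. Their best local alignment covered 177 columns, of which 91.0% were identical. In B2m the longer interferon-response core came first and the NF-kB match second. Psmb9 and Tap1 are transcribed away from each other, with 225 bases between their starts, and that stretch held a CRE core and a CCAAT box and no match to the other 3 patterns. Over the 9 member promoters, the longer core was found in 2 (B2m and H2-T23), against 2.98% of all 32851 promoter windows in the table. The shorter core was found in 2 (H2-K1 and H2-D1), against 6.31% of all windows. The NF-kB pattern was found in 3, against 4.11% of all windows. The CRE core was found in 5, against 17.8% of all windows, and the CCAAT box in 7, against 33.8%, with Psmb9 and Tap1 counted for the same pair of sites. These matches are a description of letters and say nothing on whether a factor bound there.

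Levels are given as log2 intensity relative to the 75th percentile of the same array, so that 0 is the level of that percentile and each unit is a doubling. Because intensity depends on the sequence of each probe, no level of one probe is set against that of another. In bulk RNA, fewer cells with a transcript and less of it per cell cannot be told apart. In MIN6 cells the heavy chains, the light chain, tapasin, both immunoproteasome subunits and both transporter subunits had a probe well above background on all arrays of both groups. Only Erap1 missed 1 array, MPE replicate 1. Of the 14 probes, 11 were well above background on all 7 arrays.

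The heavy chains gave strong signals. The raw spot intensity of H2-K1 was 1071 to 1204 times its local background on MPE arrays and 971 to 1175 times on vehicle arrays, at its brighter probe (A_51_P198434). For H2-D1 the ratio was 348 to 397 on MPE arrays and 316 to 352 on vehicle arrays. For H2-T23, which presents leader peptides of other class I chains, it was 238 to 302 on MPE arrays and 209 to 266 on vehicle arrays. The H2 family consists of closely related genes, and the sequences of the probes were not used here, so a heavy-chain probe may also bind transcripts of its relatives.

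The light chain B2m read 18.5 to 23.7 times local background on MPE arrays and 18.1 to 19.7 times on vehicle arrays. The immunoproteasome subunit Psmb8 read 4.63 to 5.83 times local background on MPE arrays and 4.59 to 5.24 times on vehicle arrays. Its partner Psmb9 read 6.30 to 7.28 times on MPE arrays and 5.76 to 6.92 times on vehicle arrays. Both subunits were well above background on all arrays. Erap1, the trimming peptidase, was the closest of the members to its local background by the probes used for the genes, at 2.22 to 3.42 times on MPE arrays and 1.73 to 2.31 times on vehicle arrays.

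Tap1, Tap2 and Tapbp each had a bright and a dim probe. Tap1 read 4.67 to 5.74 times local background on MPE arrays and 5.38 to 5.82 times on vehicle arrays with probe A_66_P125929. Its other probe, A_51_P100327, was well above background on 0 of 4 MPE arrays and 1 of 3 vehicle arrays. Tap2 read 16.2 to 21.0 times on MPE arrays and 13.2 to 17.8 times on vehicle arrays with probe A_55_P2017645, and A_51_P240654 was well above background on no array. Tapbp read 445 to 556 times on MPE arrays and 442 to 478 times on vehicle arrays with A_51_P304500, and 6.69 to 9.30 times on MPE arrays and 6.74 to 8.62 times on vehicle arrays with A_52_P684830. The second Tap1 and Tap2 probes did not pass the filter and were not tested, and the brightest probe stood for each gene.

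**Figure D1:**
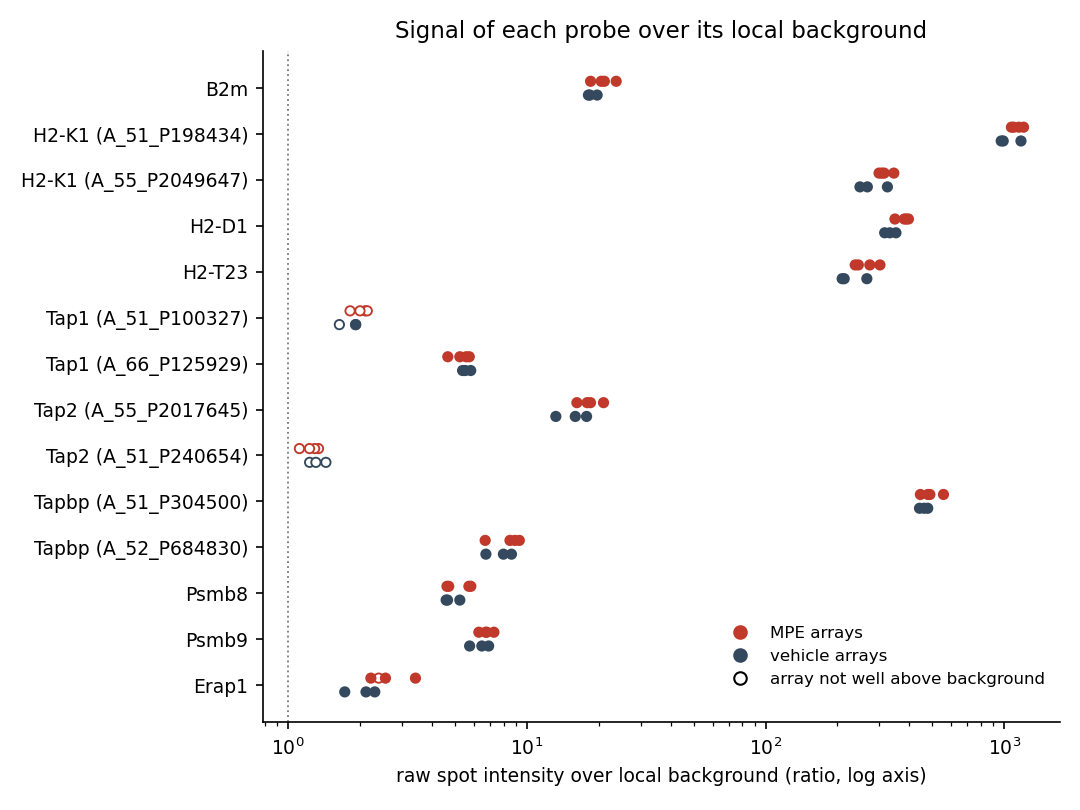
Raw spot intensity over the local background of the same spot for each of the 14 probes (log axis), with MPE arrays above vehicle arrays in each row and open circles for arrays on which the probe was not well above background. The probe A_51_P240654 of Tap2 is open on all arrays, A_51_P100327 of Tap1 on all but 1, and Erap1 on 1 MPE array.

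The comparison of MPE with vehicle asks whether 3 days with the extract went along with a different level of the machinery. None of the 10 genes passed limma's moderated test, with 0 called higher and 0 called lower at an adjusted p under 0.05 over all 22098 genes. The background was 0.00453% of all genes called higher and 0% called lower. At an unadjusted p under 0.05 the members again numbered 0 in either direction, against 0.756% of all genes higher and 3.35% lower. MPE and vehicle arrays overlapped for every one of the 10 genes, where 1.18% of all genes had all MPE arrays above all vehicle arrays, 3.38% had them below, and 4.56% had either. The fitted difference was above 0 for 2 genes and below 0 for 8, and 57.7% of all genes lay below 0. The median log2 difference over the 10 genes was -0.02, and over all genes tested it was -0.02 too.

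**Figure D2:**
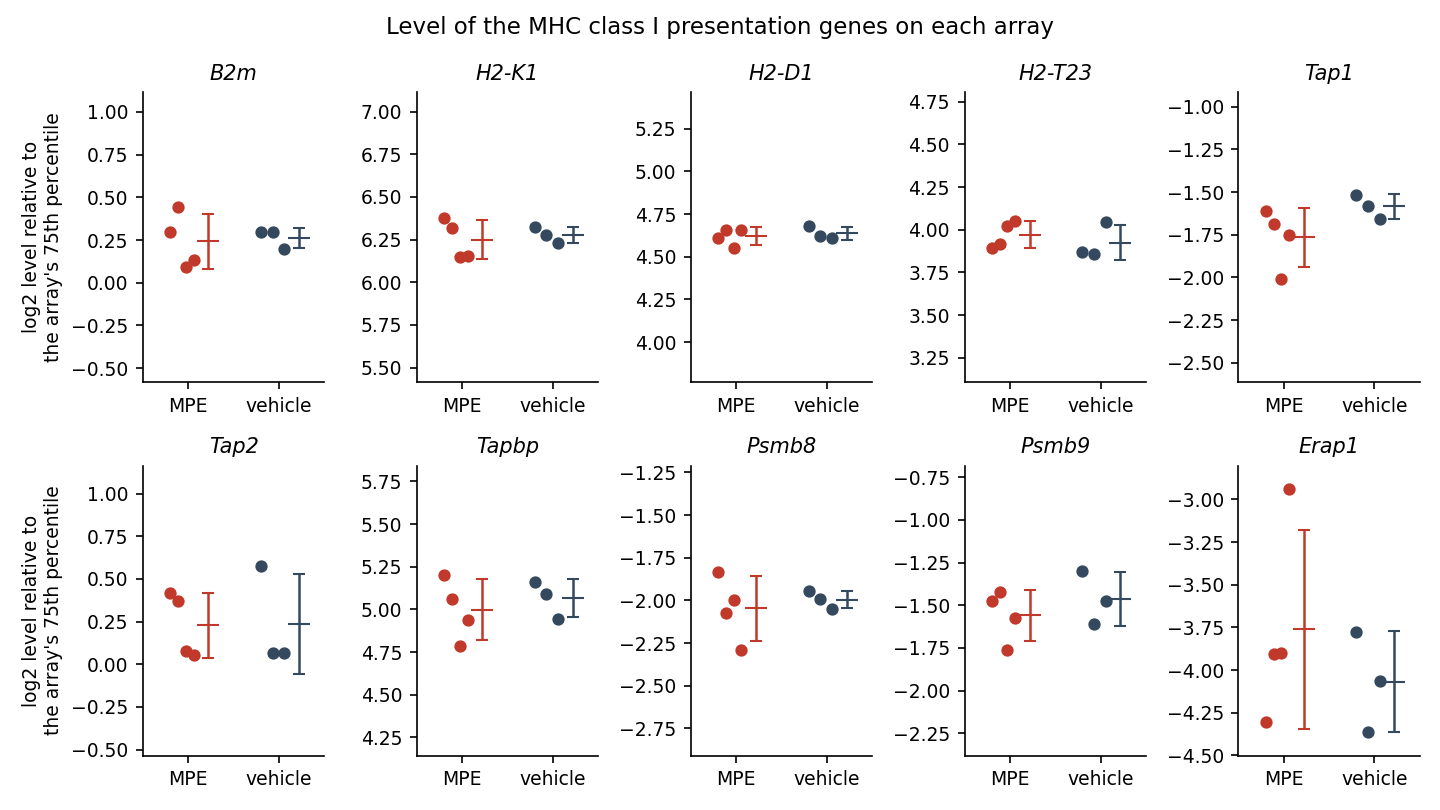
Level of each member gene on every array at its brightest probe, as log2 intensity relative to the array's 75th percentile, with MPE arrays left of vehicle arrays in each panel and a bar with whiskers for the mean and SD (n = 4 and n = 3). All panels span the same number of log2 units, and in each panel the 2 groups overlap, with the widest scatter in Erap1.

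Among the presenting chains, H2-K1 stood at 6.38, 6.32, 6.15 and 6.15 on MPE arrays and at 6.32, 6.28 and 6.23 on vehicle arrays. The vehicle values thus lay inside the MPE range. MPE levels were 0.981 times vehicle (95% interval 0.867 to 1.11). The other H2-K1 probe, A_55_P2049647, gave a log2 difference of 0.05 (SE 0.06), against -0.03 (SE 0.07) for the brighter one, and the intervals of both probes spanned 0.

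H2-D1, the other classical heavy chain, stood at 4.61, 4.66, 4.55 and 4.66 on MPE arrays and at 4.68, 4.62 and 4.61 on vehicle arrays. It had the smallest SD of the members in both groups, 0.05 over MPE arrays and 0.04 over vehicle arrays. The ratio of MPE to vehicle was 0.988 (0.906 to 1.08). H2-T23 stood at 3.90, 3.92, 4.02 and 4.05 on MPE arrays and at 3.87, 3.86 and 4.04 on vehicle arrays. Vehicle replicate 3 lay among the higher MPE arrays, and the ratio was 1.03 (0.918 to 1.16), with a log2 difference of 0.05 (SE 0.07) that turned to -0.022 when arrays were scaled to their median.

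The light chain B2m, without which most heavy chains do not reach the cell surface, stood at 0.30, 0.44, 0.09 and 0.14 on MPE arrays and at 0.30, 0.29 and 0.20 on vehicle arrays. The MPE arrays reached both above and below the vehicle arrays. The ratio was 0.986 (0.844 to 1.15), with a log2 difference of -0.02 (SE 0.09).

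For the immunoproteasome, Psmb8 stood at -1.83, -2.07, -1.998 and -2.29 on MPE arrays and at -1.95, -1.99 and -2.05 on vehicle arrays. The 3 vehicle values lay close together inside the MPE range. Its ratio was 0.965 (0.809 to 1.15). Psmb9 stood at -1.47, -1.42, -1.76 and -1.57 on MPE arrays and at -1.30, -1.61 and -1.48 on vehicle arrays. MPE replicate 3 was the lowest array and vehicle replicate 1 the highest, with the others mixed. The ratio for Psmb9 was 0.936 (0.782 to 1.12).

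Of the transporter subunits, Tap1 had the smallest unadjusted p of the members. It stood at -1.61, -1.68, -2.01 and -1.75 on MPE arrays and at -1.52, -1.58 and -1.66 on vehicle arrays. On this scale 3 of the 4 MPE arrays lay below all vehicle arrays, and MPE replicate 1 lay between them. The ratio was 0.882 (0.745 to 1.04), and on the log2 scale MPE minus vehicle came to -0.18 (SE 0.10). Psmb9, which shares its promoter region with Tap1, had a log2 difference of -0.10 (SE 0.11), which was -0.014 without vehicle replicate 1, -0.028 without MPE replicate 3 and -0.17 without vehicle replicate 2. Without MPE replicate 3, Tap1 came to -0.099.

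Tap2, which pairs with Tap1 to form the transporter, stood at 0.42, 0.37, 0.08 and 0.05 on MPE arrays and at 0.58, 0.07 and 0.07 on vehicle arrays. Vehicle replicate 1 was the highest and MPE replicate 4 the lowest, and the means were 0.23 ± 0.19 with MPE (SD, n = 4) and 0.24 ± 0.29 with vehicle (SD, n = 3). The ratio was 0.995 (0.764 to 1.30). Tapbp stood at 5.20, 5.06, 4.78 and 4.94 on MPE arrays and at 5.16, 5.09 and 4.94 on vehicle arrays. MPE replicate 3 was the lowest array and MPE replicate 1 the highest. The ratio for Tapbp was 0.954 (0.795 to 1.14), and both of its probes gave a log2 difference of -0.07.

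Erap1 was the least certain member. It stood at -4.31, -3.91, -3.90 and -2.94 on MPE arrays and at -3.78, -4.37 and -4.06 on vehicle arrays. MPE replicate 4 was the highest and vehicle replicate 2 the lowest, and the other arrays were mixed. The ratio was 1.24 with an interval from 0.729 to 2.10, so a difference of up to about 2-fold upward could not be told from none. Its log2 difference was 0.31 (SE 0.32) with all arrays and 0.03 without MPE replicate 4.

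**Figure D3:**
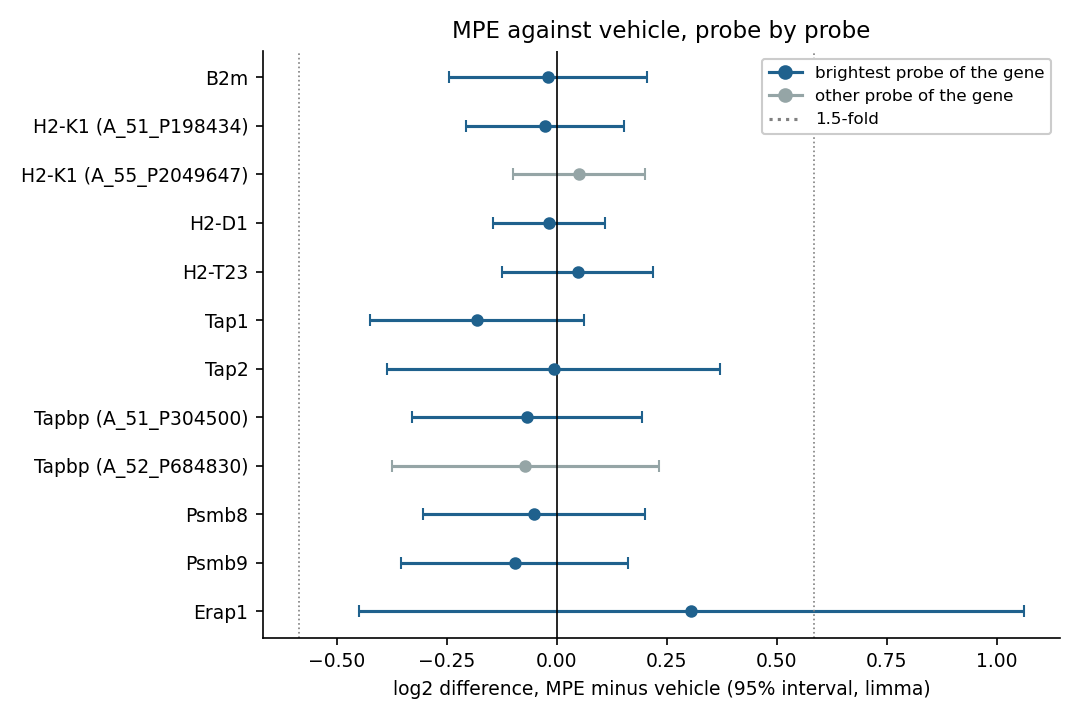
Log2 difference of MPE minus vehicle with its 95% interval by limma, for the 12 probes of the members that passed the filter, with the brightest probe of each gene in blue, a second probe in grey and dotted lines at 1.5-fold. Every interval crosses 0, and only that of Erap1 reaches past 1.5-fold.

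For 9 of the 10 genes the 95% interval lay inside 1.5-fold in both directions, which was so for 80.7% of all genes tested. Over these 9 genes the intervals ran from 0.745 to 1.30 times vehicle at their widest. Each of the 10 adjusted p-values by limma was 1.00. Of the members, Erap1 alone had an interval that reached beyond 1.5-fold.

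Slide column is a position on the slide, and columns 1, 2 and 4 held both groups. Within column 1 the difference was above 0 for 5 genes and below 0 for 5, within column 2 for 7 and 3, and within column 4 for 3 and 7. The median over the members was -0.03, 0.05 and -0.04 on the log2 scale in these columns, and over all genes it was -0.015, -0.019 and -0.017. Tap1 lay below 0 in all 3 columns (-0.10, -0.11 and -0.10), a smaller size than the -0.18 of all arrays, which also include MPE replicate 3 in a column without a vehicle array. H2-T23 lay above 0 in all 3 columns (0.03, 0.06 and 0.01). Each other member changed sign between columns, Erap1 most widely (-0.53, 0.46 and 1.13). The share of all genes with the same sign in all 3 columns was not counted. The constant sign of Tap1 and H2-T23 is thus a description only.

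**Figure D4:**
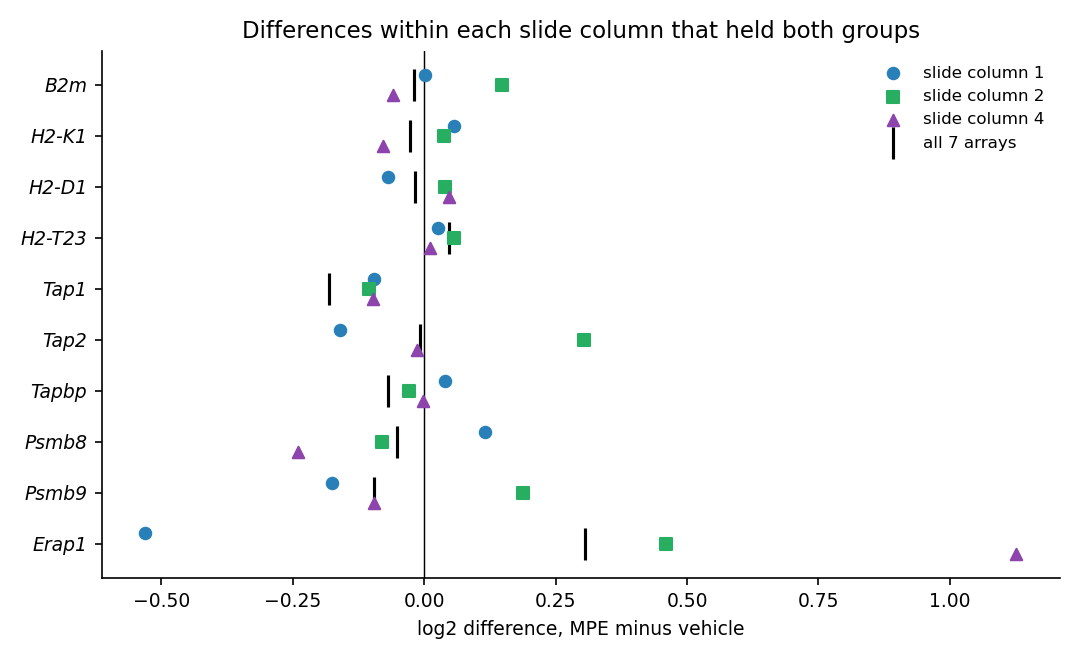
Log2 difference of MPE minus vehicle for each member within the 3 slide columns that held an array of both groups (circles, squares and triangles) and from the fit of all 7 arrays (black ticks). Tap1 lies left of 0 and H2-T23 right of 0 in every column, and the other genes lie on both sides.

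The genes whose pattern over the 7 arrays was most like that of B2m were taken as those with the smallest root mean square difference in log2 level, each gene centred on its own mean. They were Mbnl2, Cyb5rl and Fam53b, with root mean square differences of 0.030, 0.031 and 0.031, against a median of 0.13 over 12921 candidate genes. Erap1 was no candidate, since candidates had to be well above background on all arrays. Among the 8 other members, H2-K1 came closest to B2m, at 0.063 and rank 393, and H2-T23 stood farthest of these, at 0.18 and rank 9974. The arrays share a slide, and with 7 values per gene many genes lie close by.

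The rest of the class I pathway was read from lists of its other components. Of the chaperones that fold and load class I molecules (Calr, Canx, Pdia3, Tapbpl, Uggt1 and Hspa5), all 6 were tested, 2 lay above 0 and 4 below 0, and 0 passed in either direction. Their log2 differences ran from -0.09 to 0.00, with a median of -0.02. Canx, the membrane chaperone that holds new heavy chains, had the largest size, -0.09 at its brighter probe and 0.03 at the other.

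Of 11 proteasome and peptidase genes, 10 were tested, 4 above 0 and 6 below, and 0 passed. They include the third immunoproteasome subunit Psmb10, the standard catalytic subunits Psmb5, Psmb6 and Psmb7 and the activator subunit Psme1. The list ran from -0.10 to 0.05 with a median of -0.02. Lnpep, a peptidase of endosomal cross-presentation, had the largest size at -0.10 (SE 0.12), and Psmb5 had the smallest unadjusted p of the list at -0.06. Both moved with single arrays, Lnpep between -0.19 (without vehicle replicate 3) and -0.015 (without vehicle replicate 1) and Psmb5 between -0.12 (without vehicle replicate 3) and -0.029 (without vehicle replicate 2).

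Of 18 other class I and class I-like chains, 15 had a probe and 10 were tested, 4 above 0 and 6 below, with 0 past the adjusted threshold. H2-Q4 was the one member of that list with an unadjusted limma p under 0.05. It stood at 5.52, 5.41, 5.59 and 5.70 on MPE arrays and at 5.82, 5.89 and 5.77 on vehicle arrays, all MPE arrays below all vehicle arrays. Its log2 difference was -0.27 (SE 0.08, limma adjusted p = 1.00), and it was measured by 1 probe. Groups that did not overlap, with MPE lower, were found for 3.38% of all genes. H2-Q1, H2-Bl, the lipid-presenting Cd1d1 and the antibody receptor chain Fcgrt were well above background on no array.

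Transcription factors of the class I promoters were present, with 12 of 13 tested, 6 above 0 and 6 below, and 0 passed. Interferon regulatory factors Irf1 and Irf2, the signal transducer Stat2, the X-box proteins Rfx5, Rfxap and Rfxank, and the CCAAT-binding subunits Nfya, Nfyb and Nfyc were well above background on all arrays. Nfya had the largest size and the smallest p, at a log2 difference of 0.14 (SE 0.08). The exception was Nlrc5, the class I transactivator, whose 2 probes were well above background on no array. The intensity of those probes bounds the transcript only from above, and a probe that binds poorly reads the same.

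Of interferon signalling, 9 genes were tested of 9 listed, the receptor chains Ifngr1, Ifngr2, Ifnar1 and Ifnar2, the kinases Jak1, Jak2 and Tyk2 and the suppressors Socs1 and Socs3, with 5 above 0 and 4 below, and 0 passed. Ifnar1, a chain of the type I interferon receptor, stood at 2.62, 2.51, 2.74 and 2.82 on MPE arrays and at 2.90, 3.02 and 2.97 on vehicle arrays. Its groups did not overlap at that probe, which with MPE lower was so for 3.38% of all genes. The log2 difference was -0.29 (SE 0.09, limma adjusted p = 1.00). Its other probes gave -0.25 (SE 0.13) and -0.04 (SE 0.10), and at each of these the groups overlapped. Neither chain of the interferon-gamma receptor, Ifngr1 or Ifngr2, had an unadjusted p under 0.05.

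**Figure D5:**
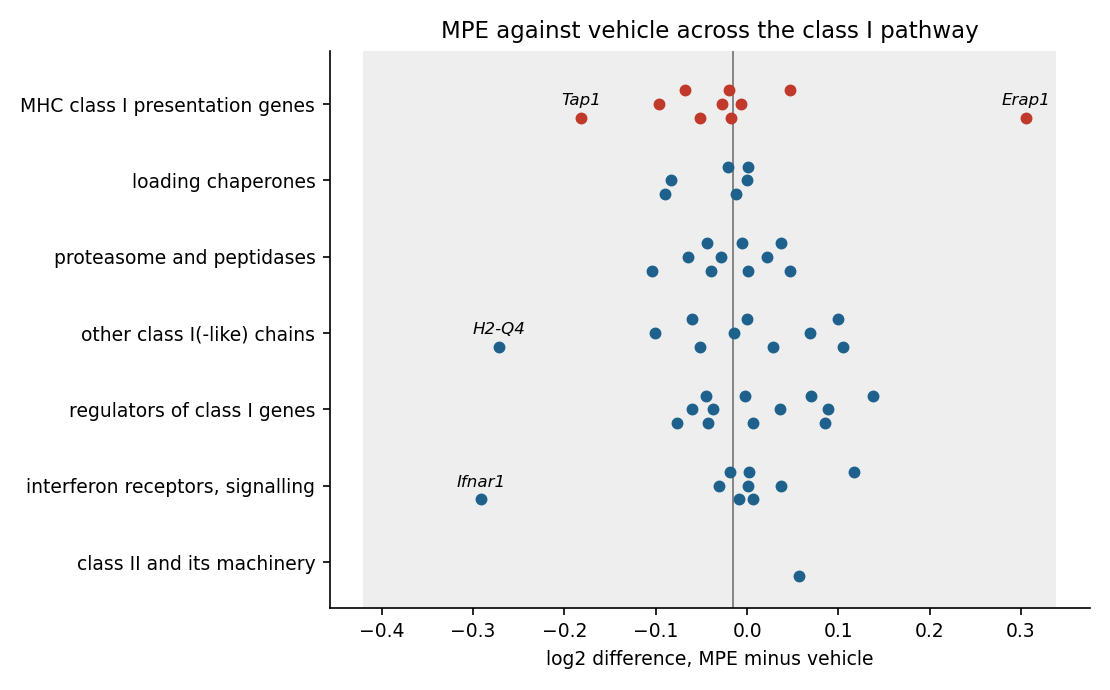
Log2 difference of MPE minus vehicle for every tested gene of the class I presentation genes (red) and of 6 lists of related genes (blue). The grey band spans the central 95% of all genes tested and the grey line is their median, and all points lie inside the band.

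Class II presentation, the route of professional antigen-presenting cells, was for the most part not detected above background in the same RNA. Of its 7 genes, 6 (H2-Aa, H2-Ab1, H2-Eb1, H2-DMb1, Cd74 and the transactivator Ciita) were well above background on no array, and only H2-DMa was tested. Markers of beta cells were present, as all 10 of them, among them Ins1, Ins2, Iapp, Pdx1 and Mafa, were well above background on every array. Of 9 immune-cell markers, 4 were tested (Itgam, Cd68, Csf1r and Cd3e), while Adgre1, Lyz2 and Itgax were well above background on no array and Ptprc on at most 1 array per probe. The summed linear level of the 4 tested markers, in units of the 75th percentile, was 17.1 to 18.6 on MPE arrays and 19.0 to 24.1 on vehicle arrays. Bright probes weigh most in this sum, and Itgam alone gave 14.2 to 16.0 on MPE arrays and 16.8 to 20.9 on vehicle arrays. Without Itgam, a setting chosen after seeing the data, the sum of the other 3 was 2.31 to 2.92 on MPE arrays and 2.11 to 3.13 on vehicle arrays, so the groups overlapped. Of the 4 markers, 2 lay above 0 and 2 below, with a median log2 difference of -0.01. Cd68 stood at 0.10 (SE 0.09), Cd3e at 0.04 (SE 0.25) and Csf1r at -0.06 (SE 0.13). Itgam stood at -0.35 (SE 0.09) on the log2 scale, MPE minus vehicle, with an adjusted p of 0.986 by limma. A second Itgam probe gave -0.12 (SE 0.11). The part of these markers in the class I values was not tested. Of 7 endothelial and stromal markers only Tagln was tested, at 0.229 to 0.301 on MPE arrays and 0.328 to 0.354 on vehicle arrays in the same units. Its log2 difference was -0.34 (SE 0.10) and did not pass the adjusted threshold. Groups that did not overlap, with MPE lower, were found for 3.38% of all genes. Kdr, Col1a1, Col3a1 and Pdgfrb were well above background on no array. Of 6 exocrine and duct markers 0 were tested, and of 6 markers of other islet cells 4 were, among them the hormones Gcg, Sst and Ppy.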

How the data were processed

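Total RNA of 7 MIN6 samples was labelled with Cy3 and measured on Agilent mouse arrays in 1 colour, as the labels' protocols say. The deposited intensity of each spot had been background-subtracted and detrended within its array by Agilent Feature Extraction, version 11.5.1.1 per the file headers and 10.5.1.1 per the submitters' processing notes. The deposited spot flags and raw median spot and background intensities were used as given. The authors also deposited log2 values per probe, whose columns correlated with log2 intensity of their own array at 0.9996 or more. They had equal medians (4.438), so they were taken as normalized between arrays. The sources used here name no tool for that step.

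Control spots and 611 outlier-flagged spots were left out, none of them at a member probe, and no spot was saturated. The spots of a probe were averaged as log2 intensity, and the 75th percentile of each array was subtracted. The filter kept 28938 probes, those well above background on 3 arrays or more, and the brightest kept probe stood for a gene. Symbols came from the RefSeq gene table of GRCm38.p6, used for names only, which matched 32994 of 56605 probes. MPE was compared with vehicle by limma 3.58.1 (R 4.3.3) in a model with the treatment alone, Benjamini-Hochberg adjustment over all genes and a threshold of 0.05. The fit was tested on simulated data. The members, the lists and the tests were chosen with earlier results of these data known. The genes named outside the members were, of each list, any that passed, the one with the largest difference, the one with the smallest p and those whose role is described, with the 3 genes most like B2m. Listed genes that were well above background on no array were named after their values were seen. The number of arrays limits the precision.

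The alternatives covered scaling, background correction, the authors' values, the filter, the probe of a gene, the variance model, array weights, blocks, each array left out and other thresholds. Normexp was run on median spot intensity (the files used here hold no mean spot intensity) and followed by quantile normalization.

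Same-numbered replicates were not treated as pairs in the fit as reported. Their deviations from the group means correlated at 0.25, 0.05 and 0.41 over the genes tested. With vehicle replicate 1, MPE replicates 1 to 4 correlated at 0.25, 0.31, -0.33 and -0.18. With vehicle replicate 3 they correlated at -0.32, -0.31, 0.41 and 0.17. Deviations were thus partly shared between the groups, and the model with the treatment alone leaves them in the spread within groups. The cause was not tested.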

Additional observations from a re-analysis of the deposited data

Results flagged for a closer look

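A single value was flagged as standing apart from the others of its group, and it was on an MPE array. The beta-cell transcription factor gene Neurod1, a marker and no member of the class I machinery, stood at 3.94 on MPE replicate 4, against 4.08 to 4.11 on the other 3 MPE arrays. Its gap to the nearest MPE array was 0.844 of the range over the MPE arrays. The vehicle arrays stood at 4.11, 3.87 and 4.06, so MPE replicate 4 lay inside the range of all arrays. No probe of the 10 class I genes was set apart in this way on the MPE arrays. On the vehicle arrays, for example, replicate 1 of Tap2 stood at 0.58, against 0.07 on the others. Vehicle replicate 3 lay apart in B2m (0.20, against 0.29 and 0.30) and in H2-T23 (4.04, against 3.86 and 3.87). Neurod1 was the only case flagged among the 81 probes checked, and these vehicle values, though set apart, were not flagged. Chance flags about 1 in 20 of the probes checked, so the single flag is no more than chance gives.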

How the results depend on the processing

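None of the 10 class I genes was called in any of the 20 settings that refitted them. The smallest adjusted p by limma over these was 0.378, for Tap1 with no filter, and without that setting it was 0.627. Of 199 member values, 171 kept their sign and 28 reversed. These values are not independent, so the tally does not measure how stable the signs are. No filter, the filter on all 7 arrays and the trended robust variance left every member difference they gave unchanged. The replicate block gave the same differences as leaving out MPE replicate 4, and the slide-column block the same as leaving out MPE replicate 3. Over the 20 settings Tap1 (-0.25 to -0.10) and Erap1 (0.03 to 0.49) kept their sign. Erap1 was at -0.53 within slide column 1, though, and it had no value with the filter on all 7 arrays. The cause of the reversals was not tested. Among them were H2-T23 at -0.022 with median scaling, which moved the median of all genes to -0.09, and H2-D1 at 0.047 with normexp and quantile normalization together. H2-K1 stood at 0.012 as the mean of its probes and at 0.051 by its dimmest probe, where Canx stood at 0.033. With array weights, B2m stood at 0.015, H2-K1 at 0.011, Tap2 at 0.11 and Psmb9 at 0.0038. With the replicate block, which drops MPE replicate 4 for want of a partner, B2m stood at 0.015, H2-K1 at 0.0046, Tap2 at 0.052 and Psmb8 at 0.028. Blocking on slide column drops MPE replicate 3, and B2m then stood at 0.030, H2-K1 at 0.0055, H2-D1 at 0.0058, Tap2 at 0.043 and Tapbp at 0.0031. Leaving out 1 array at a time gave -0.087 to 0.030 for B2m, -0.071 to 0.0055 for H2-K1, -0.031 to 0.0058 for H2-D1, -0.092 to 0.16 for Tap2, -0.14 to 0.0031 for Tapbp and -0.12 to 0.028 for Psmb8, and, with no reversal, -0.17 to -0.014 for Psmb9, -0.23 to -0.099 for Tap1, 0.016 to 0.11 for H2-T23 and 0.031 to 0.49 for Erap1. The median over the members ran from -0.07 to 0.01 without single arrays.

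Over all genes, 1 was called in the fit as reported. The count was 0 with normexp and quantile normalization together, 0 with the filter on all 7 arrays, 0 with the replicate block, 0 when blocked on slide column, 3 with the dimmest probe, 3 with the trended robust variance, 4 with array weights, and 0 to 4 without single arrays. It was 2 at an adjusted p under 0.1 and 907 at an unadjusted p under 0.05. With no filter it was 9996, a setting that also tests probes at each array's lower limit of signal, which differed between the groups. Only in that setting was Itgam called, with an adjusted p of 0.0411 (range over its alternatives 0.0411 to 1.00), and H2-Q4 and Ifnar1 reached 0.0634 and 0.0621. The replicate block called 0 members and changed no other call on them.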
